A study of Mus musculus with 4 samples.

Results

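Solute carriers are membrane proteins that move sugars, amino acids, ions, metals, nucleotides, vitamins and lipids across the plasma membrane and the membranes of organelles. Each gene is named by a family number and a member number, and family 25 works mainly in the inner mitochondrial membrane. In developing T cells, uptake of glucose, amino acids, phosphate and metals feeds growth, and the double-positive stage is largely a resting stage in which nutrient uptake is low. Glucocorticoids act through a nuclear receptor that raises and lowers transcription, and they kill double-positive thymocytes.

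The members are the 184 probe sets whose single annotated symbol begins with Slc followed by a digit, without Slc16a1. They represent 150 of the 8251 genes that a single-gene probe set names on this array. The arrays compared dexamethasone, a synthetic glucocorticoid, with medium in CD4+CD8+ thymocytes sorted with microbeads from female C3H/HeN mice aged 4 weeks. Culture lasted 3 h, in a volume of 3 ml with 5.0E+06 cells in each ml, and the additive was 1e-07 M dexamethasone in the treated group and 0.1% PBS in the medium group. Both groups had 2 arrays (n = 2 in every mean below). The series design calls them technical replicate extracts, so p-values measure only the spread between these extracts, and how many mice were pooled is not given.

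Values are MAS5 signals, in which the probes of a probe set are summarised into a brightness that is scaled over the whole array. Median signals were 21.8 to 22.7 on the dexamethasone arrays and 20.9 to 21.6 on the medium arrays, and 55.6% to 57.2% of readings exceeded 14, the highest signal among 19 bacterial and yeast control probe sets, which is called background here. The actin 3′/5′ signal ratio, a sign of RNA quality, was 1.4 and 1.24 on the dexamethasone arrays, against 1.15 and 1.06 on the medium arrays, so the groups did not overlap, and its part in the results was not tested. Log2 signals of the dexamethasone arrays correlated with each other at r = 0.976 across probe sets, those of the second dexamethasone array with the medium arrays at 0.978 and 0.979, and those of the medium arrays with each other at 0.983. The sort could be checked on 9 of 14 listed double-positive markers. These were above background on every array, with a summed signal of 15022 to 16013 with dexamethasone and 14992 to 15204 in medium, although Cd8b1 fell and Satb1 rose. Summed signals with dexamethasone and in medium were 2233 to 2262 and 1805 to 1808 for 8 B cell markers, 167.1 to 184.4 and 188.0 to 188.1 for 12 macrophage and dendritic cell markers, 163.2 to 176.5 and 254.1 to 262.0 for 9 markers of epithelium and stroma, and 129.3 to 158.8 and 121.1 to 126.3 for 5 erythroid markers. Ighm rose and carried most of the B cell sum. Without Ighm the B cell sum was 510.9 and 484.5 with dexamethasone, against 525.9 and 547.6 in medium. Most of that remainder was Cd74, with 329.9 and 322.1 with dexamethasone, against 378.7 and 397.7 in medium. Of the 7 B cell markers tested, Ighm included, 5 were higher with dexamethasone and 2 lower. Their median log2 difference was 0.37, beside 0.00 over all genes, and only Ighm passed. Cldn4 fell and carried most of the epithelial sum, and which cells its signal came from was not tested. Without Cldn4 that sum was 75.8 and 78.7 with dexamethasone, against 51.2 and 51.8 in medium, and Col1a1 within it had 33.5 and 38.2 with dexamethasone, against 16.5 and 18.4 in medium (limma adjusted p = 0.0502). Krt5, Krt8, Krt18, Epcam and Foxn1 of the epithelial list were at background in both groups, as were Itgam, Adgre1, Alas2 and Cd22. Other markers of these lists exceeded background on every array: Cd79a, Cd79b, Cd74, Ms4a1, Ctss, Cd14, Cd68 and Hba-a1. The part of other cells in the results below was not tested, and in such bulk RNA fewer cells of a type cannot be told apart from less RNA per cell.

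Promoter windows are shown for the only carrier gene that rose and for the 2 that fell most, a choice made by direction and size. Sequences are RefSeq's for GRCm38.p6, from 250 bases before to 50 bases after the start site, 5′ to 3′, with capitals on GC boxes (GGGCGG on either strand), and Slc20a1 is shown at the upstream start of its 2. The Slc30a4 window is chr2:122702614-122702913 on the minus strand, the Slc35d1 window chr4:103215127-103215426 on the minus strand and the Slc20a1 window chr2:129198523-129198822 on the plus strand.
Slc30a4: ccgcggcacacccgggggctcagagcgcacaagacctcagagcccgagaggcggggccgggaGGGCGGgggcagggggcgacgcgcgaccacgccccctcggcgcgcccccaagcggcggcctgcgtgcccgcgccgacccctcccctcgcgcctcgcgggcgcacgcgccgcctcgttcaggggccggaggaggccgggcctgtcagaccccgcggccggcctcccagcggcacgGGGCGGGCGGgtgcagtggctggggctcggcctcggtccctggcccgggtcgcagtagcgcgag
Slc35d1: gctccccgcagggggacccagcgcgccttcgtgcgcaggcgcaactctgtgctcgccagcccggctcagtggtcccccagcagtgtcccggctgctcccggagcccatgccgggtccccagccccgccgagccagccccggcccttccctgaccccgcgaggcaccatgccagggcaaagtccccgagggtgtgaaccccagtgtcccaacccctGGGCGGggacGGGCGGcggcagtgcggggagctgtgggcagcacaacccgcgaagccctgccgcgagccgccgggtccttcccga
Slc20a1: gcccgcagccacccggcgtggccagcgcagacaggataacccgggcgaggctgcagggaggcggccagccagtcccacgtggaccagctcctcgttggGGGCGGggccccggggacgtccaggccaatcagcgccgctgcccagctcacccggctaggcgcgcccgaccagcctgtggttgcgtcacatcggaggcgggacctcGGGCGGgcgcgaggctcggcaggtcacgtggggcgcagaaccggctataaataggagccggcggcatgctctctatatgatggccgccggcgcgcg

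The 3 windows held 81.7%, 75.3% and 73% G and C, and the 8 windows of the 5 genes that changed held 52% to 81.7%, beside a median of 52.7% over the 32851 windows of all genes. The lowest was the downstream start of Slc20a1. GC boxes lay in 6 of the 8, the 3 shown included, and in 35.7% of all windows, and both Slc4a2 windows held none. The 6 belong to Slc12a7, Slc20a1, Slc30a4 and Slc35d1. Both Slc12a7 windows are among them and overlap, at chr13:73763410-73763709 and chr13:73763447-73763746. They hold the same GC boxes, so their shared sequence is counted again in each tally over the 8 windows. The full palindromic glucocorticoid response element, AGAACA and TGTTCT with any 3 bases between them, was in 0 of the 8 windows and in 0.00913% of all windows. Its half-site AGAACA, on either strand, was in 1 of the 8, the downstream start of Slc20a1, and in 19% of all windows. The core of the metal response element (TGCACNC or TGCGCNC, either strand) was in 4 of the 8 windows and in 25.7% of all. The Slc30a4 window held it at 3 places, which start 228, 92 and 6 bases before the start site, and the last of these overlaps a GC box. These matches describe letters only.

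Of the 150 genes, 89 had a mean log2 signal above the filter and were tested. The other 61 had signals between 0.1 and 23.3 and are described only by level. Of the 89, the fit called 5 at a limma adjusted p under 0.05: Slc30a4 rose, and Slc35d1, Slc20a1, Slc4a2 and Slc12a7 fell. That is 5.62% of the tested Slc genes, of which 3 encode proteins that are not carriers, beside 3.91% of all 5582 genes tested. By direction it is 1 rise beside 1.88% of all genes and 4 falls beside 2.02%. The median log2 difference was -0.01 over the Slc genes and 0.00 over all genes, and 71.9% of Slc genes and 69.6% of all genes differed by less than 0.25. Groups did not overlap for 21 Slc genes that were higher with dexamethasone and 19 that were lower, 44.9% of the 89, beside 24.7%, 25.7% and, in either direction, 50.5% of all genes. An unadjusted limma p under 0.05 was reached by 12 Slc genes, 2 higher and 10 lower, or 13.5%, beside 19.9% of all genes, of which 9.15% were higher and 10.7% lower. Differences of at least 1.5-fold numbered 8 of the 89, or 8.99%, against 6.32% of all genes. Those of Slc1a4, Slc7a7, Slc6a2, Slc39a8 and Slc9a3r2 did not pass, and each of these genes had a reading near or under background.

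Directions rest on the scaling of whole arrays. The 9 probe sets of the spiked hybridization transcripts BioB, BioC, BioDn and CreX read 1.37-fold higher on the dexamethasone arrays than on the medium arrays. With arrays set to them the median log2 difference was -0.47 over the Slc genes and -0.45 over all genes, and there was 1 rise among the Slc genes, beside 0.77% of all genes, with 41 falls, beside 44.8%. All 5 calls kept their direction, and changes below are relative to the authors' scaling.

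Slc30a4 encodes a zinc transporter that moves zinc out of the cytosol into vesicles, and its loss causes the lethal milk phenotype of mice. Its signal was 111.8 and 126.2 with dexamethasone, against 48.4 and 62.1 in medium. Both dexamethasone arrays lay above both medium arrays. The means were 119 ± 10.2 with dexamethasone and 55.2 ± 9.69 in medium (SD), a 2.15-fold rise and a log2 difference of 1.1 ± 0.15 (SE, limma adjusted p = 0.0179). When arrays were instead set to the spiked hybridization transcripts, Slc30a4 differed by 0.65 and still passed. The second Slc30a4 probe set was at background, at 5.5 and 0.6 with dexamethasone and at 2.8 and 2.3 in medium. When the probe sets of a gene were averaged the difference was 0.48 and the call was lost (limma adjusted p = 0.518), and it was also lost when any of the 4 arrays was left out, at differences of 0.92 to 1.28.

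Slc35d1 encodes a transporter that brings UDP-glucuronic acid and UDP-N-acetylgalactosamine into the endoplasmic reticulum and is needed for cartilage proteoglycans in mice. It fell the most of the called carriers, with signals of 257.8 and 291.7 under dexamethasone, against 457.9 and 444.1 in medium. Neither dexamethasone value came near the medium values. The means were 275 ± 24 with dexamethasone and 451 ± 9.76 in medium, 1.64-fold lower with dexamethasone (log2 difference -0.72 ± 0.08, limma adjusted p = 0.0096). With an array left out, Slc35d1 passed only without the second dexamethasone array, at -0.80, and differed by -0.74 to -0.63 without each of the others. The other 4 genes passed in none of these fits.

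The other falls were those of 3 plasma membrane carriers of inorganic ions. Slc20a1 encodes a sodium-dependent phosphate importer that also serves as a receptor for gammaretroviruses. Its signal was 114.3 and 104.3 with dexamethasone, against 183.6 and 163.4 in medium. The groups were well apart, with a 1.58-fold lower signal under dexamethasone (log2 difference -0.66 ± 0.10, limma adjusted p = 0.0262). Without the filter on dim genes the call was lost.

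Slc4a2 encodes an anion exchanger that swaps chloride for bicarbonate and so bears on cell pH. It had 167.4 and 182.4 with dexamethasone, against 265.3 and 251.8 in medium, a log2 difference of -0.56 ± 0.08 (limma adjusted p = 0.0231). Slc12a7 encodes a potassium-chloride cotransporter that lets cells lose salt and water. It had 370.2 and 363.4 with dexamethasone, against 498.4 and 514.3 in medium, a log2 difference of -0.46 ± 0.07 (limma adjusted p = 0.0192). For both genes the spread within each group was small beside the distance between groups. All calls on Slc20a1, Slc4a2 and Slc12a7 were lost when any of the 4 arrays was left out, with log2 differences of -0.74 to -0.58 for Slc20a1, -0.62 to -0.50 for Slc4a2 and -0.49 to -0.44 for Slc12a7.

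**Figure D1:**
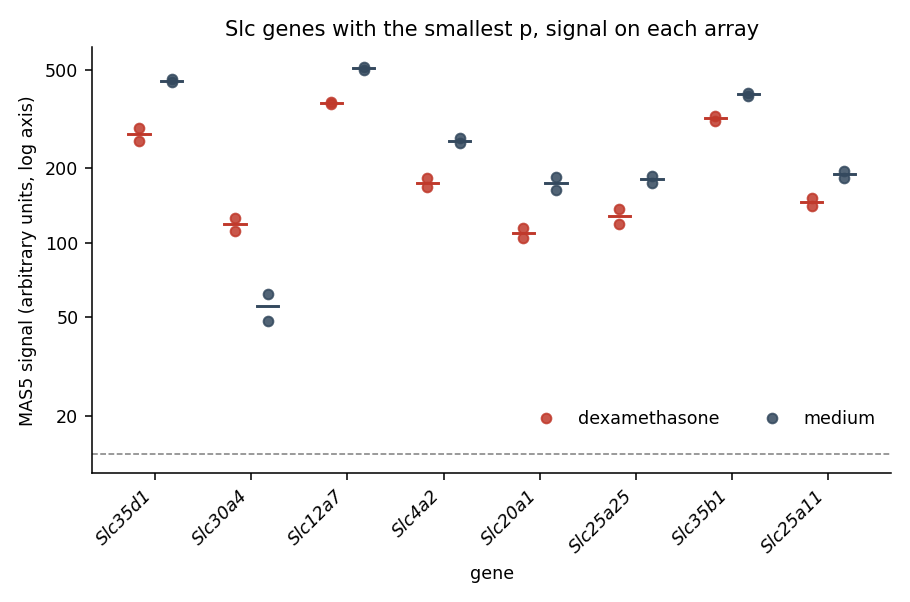
MAS5 signal (log axis) of the 8 Slc genes with the smallest limma p, with dexamethasone arrays in red at the left and medium arrays in dark blue-grey at the right of each gene; points are arrays, short lines are means of 2 and the dashed line is background, 14. Slc30a4 is the one gene with both dexamethasone arrays above the medium arrays, and the other 7 lie below.

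3 further carriers lay near the threshold without passing. Slc25a25, a calcium-regulated mitochondrial carrier that exchanges ATP-magnesium for phosphate, had 119.1 and 137.2 with dexamethasone, against 186.9 and 174.5 in medium (log2 difference -0.50 ± 0.10, limma adjusted p = 0.0577). Slc35b1, a nucleotide transporter of the endoplasmic reticulum, had 324.7 and 311.8 with dexamethasone, against 404.4 and 390.0 in medium (-0.32 ± 0.07, limma adjusted p = 0.0629). Slc25a11, which exchanges oxoglutarate for malate, had 141.3 and 151.5 with dexamethasone, against 182.5 and 195.5 in medium (-0.37, limma adjusted p = 0.0834). In each of these the dexamethasone arrays lay below both medium arrays.

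Among the inorganic ion carriers 3 of 8 tested genes fell and 0 rose, beside 2.02% and 1.88% of all genes, and the median log2 difference was -0.27 over the 8 and 0.00 over all genes. The rest of the class differed without passing. Slc41a1, a magnesium transporter, had 49.5 and 63.1 with dexamethasone, against 76.6 and 77.9 in medium (-0.46 ± 0.15). Slc12a2, the sodium-potassium-chloride cotransporter, which takes up salt where Slc12a7 releases it, had 34.1 and 25.5 with dexamethasone, against 24.6 and 20.2 in medium (0.39 ± 0.23). Slc12a4, a relative of Slc12a7 in the same subfamily, differed by -0.01 with a 95% interval of -0.29 to 0.26, which leaves out a fall as large as that estimated for Slc12a7. The organellar sodium-proton exchanger gene Slc9a8 differed by -0.08 and Slc12a5 by 0.05, and Slc4a1, the anion exchanger of red cells, was at background in both groups. The difference between classes was not tested.

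**Figure D2:**
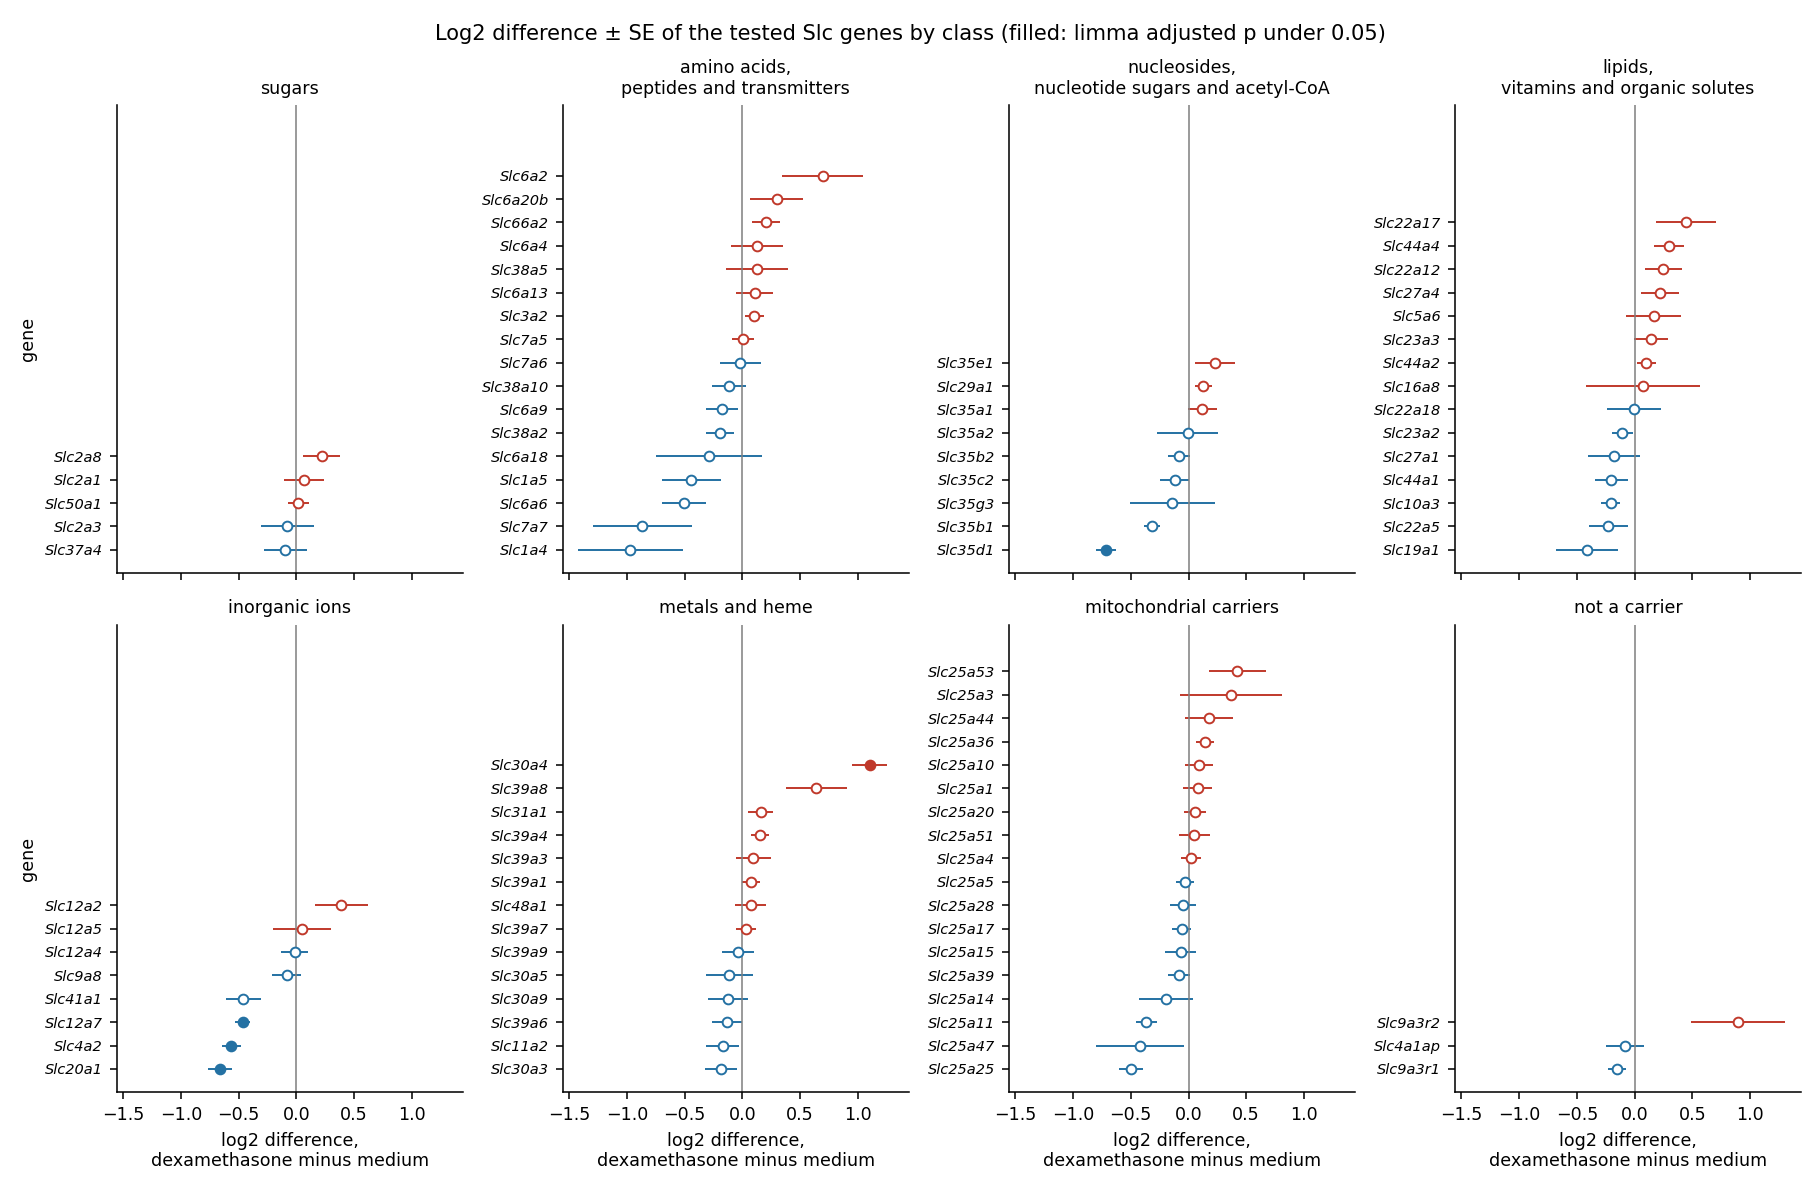
Log2 difference (dexamethasone minus medium) of the 89 tested Slc genes, one panel for each of 8 classes, sorted by size; bars are limma SEs, red is higher and blue lower with dexamethasone, and filled points passed an adjusted p under 0.05. The filled points are Slc35d1, Slc12a7, Slc4a2, Slc20a1 and Slc30a4, and the 18 mitochondrial and 5 sugar carriers hold none. Of all genes tested, 3.91% passed.

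The sugar carriers gave 0 calls among 5 tested of 10 with limma, and 0 at an unadjusted p under 0.05. The shares of all genes were 3.91% and 19.9%. With so few genes tested in each class, 0 calls cannot be told apart from the share of all genes. Slc2a1, the basal glucose transporter of most cells, had 38.6 and 32.9 with dexamethasone, against 32.5 and 35.7 in medium. Its log2 difference of 0.06 had a 95% interval of -0.36 to 0.48, so a change of up to about that size could not be seen. Slc2a3, a high-affinity glucose transporter, had 27.4 and 20.3 with dexamethasone, against 23.2 and 26.8 in medium (-0.08, interval -0.63 to 0.48). Slc2a8, an intracellular hexose transporter, had 61.8 and 58.7 with dexamethasone, against 58.6 and 45.4 in medium (0.22, interval -0.17 to 0.61). The groups overlapped for Slc2a1 and Slc2a3, and for Slc2a8 the lower dexamethasone array and the higher medium array were almost equal. Slc37a4, the glucose-6-phosphate transporter of the endoplasmic reticulum, differed by -0.10 and the sugar transporter gene Slc50a1 by 0.02. Set to the spiked transcripts, Slc2a1, Slc2a8 and Slc50a1 turned lower with dexamethasone without passing (-0.39, -0.23 and -0.44), and Slc37a4, lower in both, passed (-0.55). Slc2a2, Slc2a4 and Slc5a1, glucose carriers known from liver, muscle and gut, and the inositol carrier gene Slc5a11 were at background in both groups.

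The amino-acid, peptide and transmitter carriers gave 0 calls among 17 tested of 36 with limma, beside 3.91% of all genes. At an unadjusted p under 0.05 there was 1, Slc6a6, beside 19.9% of all genes. Slc7a5 and Slc3a2 encode the light and heavy chains of the main importer of large neutral amino acids, which activated T cells raise. Slc7a5 had 159.7 and 182.9 with dexamethasone, against 174.8 and 165.9 in medium (0.01, 95% interval -0.23 to 0.24). Slc3a2 had 424.2 and 410.5 with dexamethasone, against 413.3 and 366.0 in medium (0.10, interval -0.10 to 0.30). For both the arrays of the groups overlapped. Under the authors' scaling the intervals leave out a change of 0.46, the size of the fall in Slc12a7. Set to the spiked transcripts, Slc7a5 differed by -0.45 and Slc3a2 by -0.35 without passing, and Slc12a7 by -0.92.

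The neutral amino-acid exchangers of family 1 had lower signals on both dexamethasone arrays without passing. Slc1a5, through which many cells take up glutamine, had 15.4 and 22.8 with dexamethasone, against 24.5 and 27.3 in medium (-0.44 ± 0.25). Slc1a4 had 14.5 and 5.7 with dexamethasone, against 15.8 and 22.7 in medium (-0.97 ± 0.45). Both lay near the background of 14. Slc7a7, a cationic and neutral amino-acid exchanger light chain, had 7.5 and 18.9 with dexamethasone, against 19.7 and 26.2 in medium (-0.87 ± 0.43), and its relative Slc7a6 differed by -0.02. Slc38a2, a sodium-coupled importer of small neutral amino acids that starved cells raise, had 306.6 and 242.3 with dexamethasone, against 320.9 and 302.3 in medium (-0.19 ± 0.12).

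Slc6a6, the taurine transporter, had 75.0 and 104.6 with dexamethasone, against 111.9 and 142.0 in medium (-0.50 ± 0.19). Both dexamethasone arrays lay below both medium arrays, and its second probe set ran the other way (0.22). Slc6a2, the noradrenaline transporter, had 42.2 and 34.3 with dexamethasone, against 15.7 and 33.8 in medium (0.70 ± 0.35), where 1 medium array nearly reached the dexamethasone values. The cationic amino-acid transporter genes Slc7a1, Slc7a2 and Slc7a3 were at background in both groups.

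**Figure D3:**
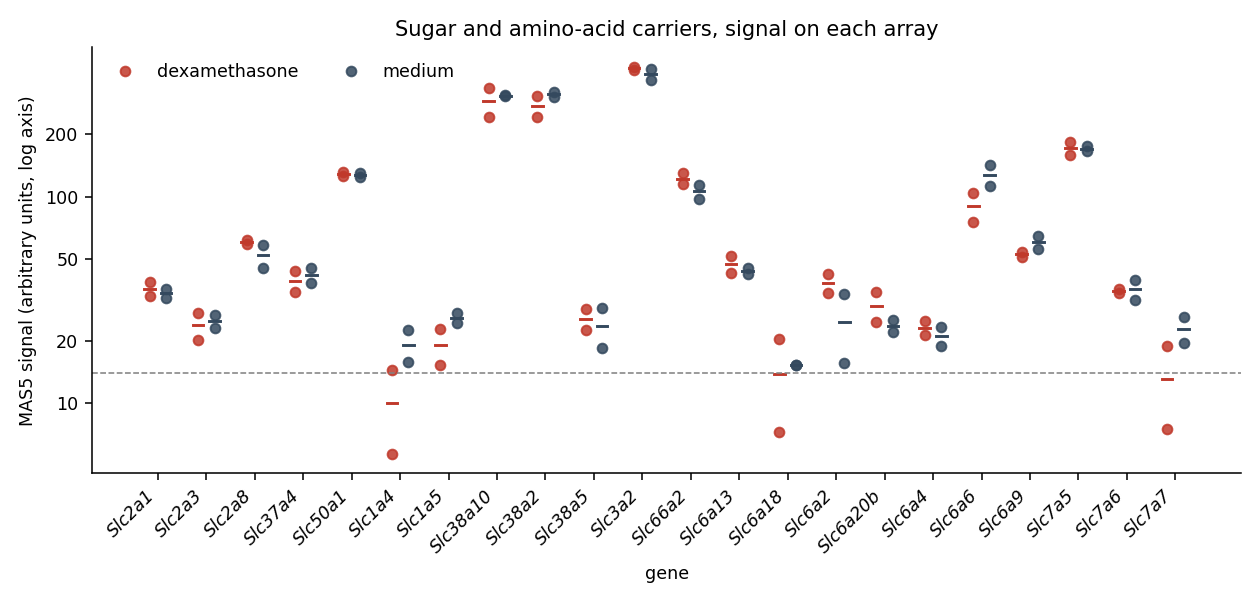
MAS5 signal (log axis) of the 5 sugar and 17 amino-acid, peptide and transmitter carriers that were tested; dexamethasone arrays are red at the left and medium arrays dark blue-grey at the right of each gene, short lines are means of 2 and the dashed line is background, 14. Points of the groups lie close together or overlap for most genes, and 0 of the 22 passed, beside 3.91% of all genes.

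Mitochondrial carriers gave 0 calls among 18 tested of 20 with limma, beside 3.91% of all genes. At an unadjusted p under 0.05 there were 2, Slc25a25 and Slc25a11, beside 19.9% of all genes. Of the 18, 13 differed by less than 0.25, beside 69.6% of all genes. The median log2 difference was -0.00. The ADP/ATP carrier gene Slc25a4 had 434.1 and 474.4 with dexamethasone, against 422.2 and 471.6 in medium (0.02, 95% interval -0.18 to 0.23). Set to the spiked transcripts, Slc25a4 was lower and passed (-0.43), as did Slc25a5 (-0.48), Slc25a25 (-0.95) and Slc25a47 (-0.87). Under that scaling 44.8% of all genes fell. The other ADP/ATP carrier gene, Slc25a5, had 314.0 and 295.4 with dexamethasone, against 300 and 322.4 in medium (-0.03) on a probe set of a family-wide design, and -0.01 on the next brightest. The citrate carrier gene Slc25a1 differed by 0.08 and by -0.37 on its dimmer probe set. The carnitine-acylcarnitine carrier gene Slc25a20 differed by 0.06, the iron importer gene Slc25a28 by -0.05 and the mitochondrial NAD carrier gene Slc25a51 by 0.05. The phosphate carrier gene Slc25a3, which nearly every cell uses, read only 8.5 and 17.3 with dexamethasone and 11.9 and 7.1 in medium, so a low reading on this array cannot be taken for a low transcript level. The largest differences after Slc25a25 were those of Slc25a53, with 20.7 and 24.3 with dexamethasone, against 18.8 and 14.4 in medium (0.42 ± 0.25), and Slc25a47, with 21.5 and 11 with dexamethasone, against 26.1 and 16.8 in medium (-0.42 ± 0.38). The groups overlapped for Slc25a47 and not for Slc25a53.

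Of the metal and heme carriers, 14 of 16 were tested and only Slc30a4 passed, beside 3.91% of all genes. The other zinc exporters tested differed by -0.19 for Slc30a3, -0.13 for Slc30a9 and -0.11 for Slc30a5. Slc30a1, a plasma membrane zinc exporter and a target of the metal-responsive factor, was at background in both groups. Among the 7 zinc importers of family 39, differences lay between -0.13 for Slc39a6 and 0.64 for Slc39a8. The brightest, Slc39a7, which releases zinc from the endoplasmic reticulum, had 316.8 and 347.5 with dexamethasone, against 310.5 and 339.8 in medium (0.03). Slc39a8 had 17.2 and 17.5 with dexamethasone, against 11.7 and 9.9 in medium, where both values are background (limma adjusted p = 0.25). The metallothionein gene Mt2, which binds excess zinc and is itself a known glucocorticoid target, differed by 0.07 and did not pass. The copper importer gene Slc31a1 had 123.1 and 140.8 with dexamethasone, against 122.5 and 113.6 in medium (0.16), and -0.03 on its other probe set. Slc11a2, the divalent metal transporter of iron uptake, had 95.7 and 83.2 with dexamethasone, against 111.7 and 90.5 in medium (-0.17).

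Of the nucleoside and nucleotide-sugar carriers, 9 of 13 were tested and only Slc35d1 passed, beside 3.91% of all genes. Slc29a1, the main nucleoside transporter of many cells, had 765.6 and 692.4 with dexamethasone, against 649.2 and 682.1 in medium (0.13 ± 0.08). Among the other family 35 genes, those for Golgi carriers of CMP-sialic acid (Slc35a1), UDP-galactose (Slc35a2) and the sulfate donor PAPS (Slc35b2) differed by 0.12, -0.01 and -0.08. Slc35e1 had 68.6 and 95.1 with dexamethasone, against 68.2 and 69.3 in medium, where only 1 dexamethasone array was higher than the medium values.

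The carriers of lipids, vitamins and organic solutes gave 0 calls among 15 tested of 31 with limma, beside 3.91% of all genes. At an unadjusted p under 0.05 there was 1, Slc10a3 (-0.21), beside 19.9% of all genes. Slc19a1, the reduced folate carrier, had 51.0 and 30.1 with dexamethasone, against 59.1 and 46.7 in medium (-0.41 ± 0.27). Its dimmer probe set, also above background, differed by -0.02. Slc44a2, of the choline transporter-like family, had 229.8 and 244.2 with dexamethasone, against 224.3 and 216.8 in medium (0.10), and the choline transporter gene Slc44a1 51.8 and 45.1 with dexamethasone, against 54.5 and 57.0 in medium (-0.20). Slc44a4 had 81.6 and 70.2 with dexamethasone, against 61.0 and 62.0 in medium (0.30 ± 0.13). Slc22a17 had 28.7 and 35.2 with dexamethasone, against 28.6 and 18.5 in medium (0.45 ± 0.26), and its groups nearly touched. The ascorbate transporter gene Slc23a2 differed by -0.11 and the carnitine transporter gene Slc22a5 by -0.23. Of the 3 genes whose Slc symbols belong to proteins that are not carriers, 0 passed with limma, beside 3.91% of all genes. An unadjusted p under 0.05 was reached by 0 of the 3, beside 19.9% of all genes. Slc9a3r1, a scaffold that anchors transporters at the membrane, had 985.9 and 950.8 with dexamethasone, against 1143.0 and 1009.2 in medium (-0.15 ± 0.08), Slc9a3r2 differed by 0.90 near background and Slc4a1ap by -0.09.

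The carriers at background could not be tested, but their readings can be set beside those of other dim genes. Of the 57 Slc genes at background in both groups, the dexamethasone arrays were both higher than the medium arrays for 12 (21.1%) and both lower for 5 (8.77%), beside 23.5% and 10.4% of all 2614 genes at background in both groups. Of the 61 genes not tested, 4 had a value over 14. Slc3a1, the heavy chain of the kidney cystine transporter, read 23.3 and 11 with dexamethasone and 5.2 and 3.0 in medium. Its light chain, Slc7a9, read 14.6 and 11.4 with dexamethasone and 3.6 and 4.7 in medium. Slc2a5, a fructose transporter, read 14.5 and 10.1 with dexamethasone and 2.2 and 3.6 in medium, and Slc51a read 16.6 and 7.3 with dexamethasone and 8.0 and 7.5 in medium.

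Partners and regulators of carriers were also measured. Of 42 listed, 27 were tested, 3 rose, where 1.88% of all genes did, and 1 fell, where 2.02% did. The median log2 difference was -0.02, beside 0.00 over all genes. Emb, which encodes embigin, a chaperone of monocarboxylate carriers, had 448.5 and 430.7 with dexamethasone, against 159.5 and 172.6 in medium (2.64-fold, limma adjusted p = 0.00067). Its call was lost when probe sets were averaged (limma adjusted p = 0.0807). Atp1b3, a beta subunit of the sodium pump whose gradient drives sodium-coupled carriers, had 3065 and 3121 with dexamethasone, against 1388 and 1469 in medium (2.17-fold). Txnip, which promotes removal of glucose transporters from the cell surface, had 1257 and 1331 with dexamethasone, against 621.4 and 599.9 in medium. Its log2 difference of 1.08 was 0.54 when probe sets were averaged, and its call was lost without the variance trend (limma adjusted p = 0.0535). Nedd4l, a ubiquitin ligase that lowers surface levels of several carriers and channels, had 149.5 and 148.2 with dexamethasone, against 193.8 and 210.7 in medium (-0.44 ± 0.09, limma adjusted p = 0.0489, lost in 9 of 15 alternatives). Bsg, which encodes basigin, the other such chaperone, differed by -0.21, and Sgk1, a glucocorticoid-inducible kinase that activates carriers, by 0.44 ± 0.12, and neither passed. The amino-acid stress genes Atf4 and Asns differed by -0.05 and -0.16.

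The 5 calls depended on settings to different degrees, as the plot of each setting shows. Under the 15 alternatives Slc35d1 passed in 11, Slc12a7 and Slc4a2 in 10 each, and Slc20a1 and Slc30a4 in 9 each, with the direction kept in every one. The fit without a variance trend called 0 of the 5, beside 17 rises and 2 falls among all genes.

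**Figure D4:**
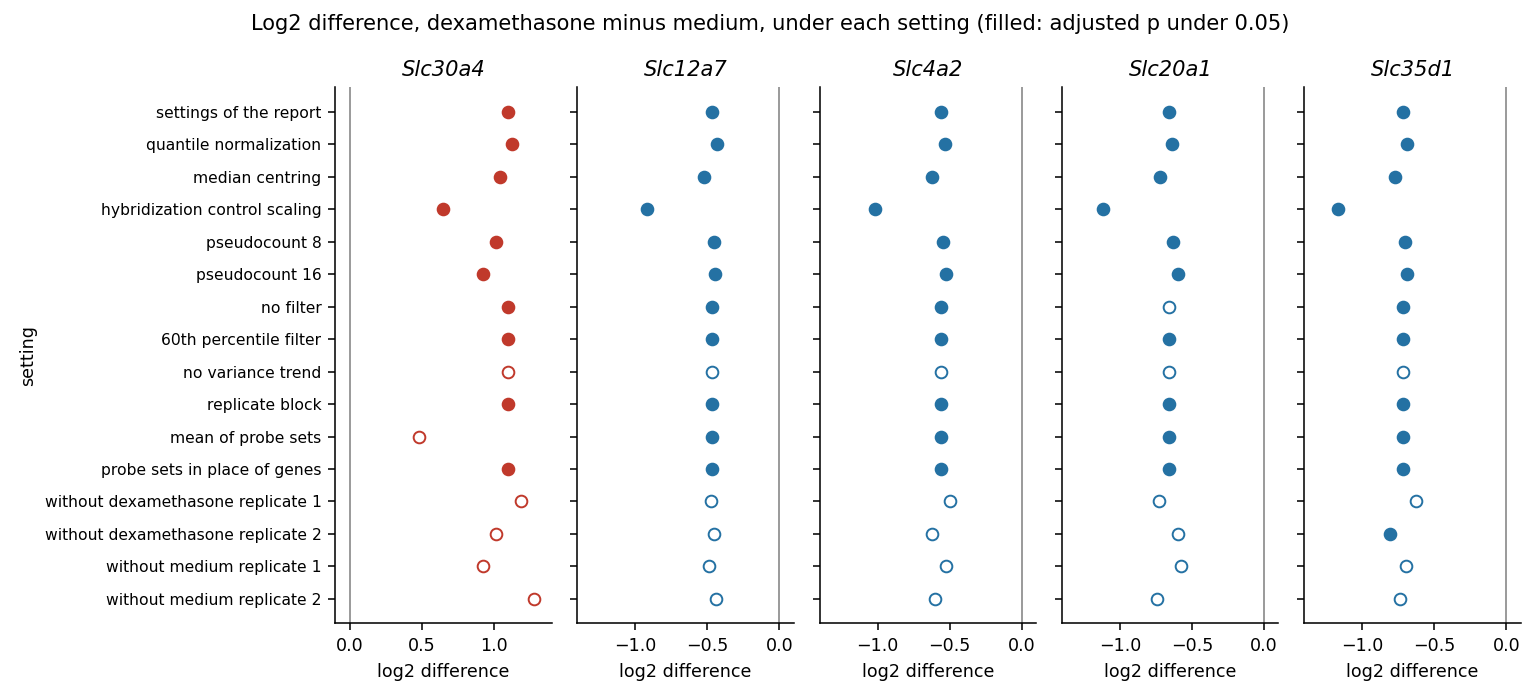
Log2 difference (dexamethasone minus medium) of Slc30a4, Slc12a7, Slc4a2, Slc20a1 and Slc35d1 under the settings of the report and the 15 alternatives; red is higher and blue lower with dexamethasone, and filled points passed an adjusted p under 0.05. Points stay on the same side of 0 throughout, and with an array left out only 1 point, for Slc35d1, is filled.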

How the data were processed

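RNA of 4 samples was measured on Affymetrix arrays. Each deposited intensity is linear, and the submitters' processing notes name MAS5 without a version. The 2% trimmed mean of every array lay at 100.06 to 100.07. By the platform annotation, 10833 of 12488 probe sets named 1 gene, 396 several and 1193 none, and 66 were controls. All 150 Slc genes matched the reference gene table by gene ID, and 0 were renamed. No coordinates of probe sets are given, since the array names no build.

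Signals were used as log2(signal + 1), so that changes of dim genes come out too small. Each gene was represented by its brightest probe set, and genes at or under the 40th percentile of mean log2 signal over all probe sets that are not controls were left out. Dexamethasone was compared with medium over all 5582 remaining genes with lmFit and eBayes, with a variance trend, using limma 3.58.1 (R 4.3.3). Tests were two-sided, p-values were adjusted by Benjamini-Hochberg, and 0.05 was the threshold. The fit was run on simulated data with known changes. It called 27.3% of log2 changes of 0.5, 66.4% of those of 1 and 93.3% of those of 2. Of the calls, 5.37% were false. The simulated spread was drawn from the fit's own variance model, so the run cannot show whether that model suits these arrays. A gene is said to have risen or fallen only when it passed. Background means that neither array of a group exceeded 14. The number of arrays limits the precision: an exact permutation test of 2 against 2 cannot go below p = 0.333.

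Genes were put into 8 classes by family number, with single genes placed by their substrate (Slc5a6) or set apart as not carriers (Slc4a1ap, Slc9a3r1, Slc9a3r2). The members, classes and lists were chosen with earlier results of these data known. The text names every Slc gene that passed, the brightest and the 3 most different tested genes of each class, the tested members of families 2, 3 and 7, and 8 further genes where present. Of the partner list it names those that passed and the 3 most different. Slc genes outside this, Mt2, Bsg, Sgk1, Atf4 and Asns were chosen after their values were seen, as were the motifs. The alternatives were 3 other scalings, pseudocounts of 8 and 16, 2 other filters, no trend, a replicate block, averaging a gene's probe sets, testing probe sets singly and leaving out each array.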

Additional observations from a re-analysis of the deposited data

How the results depend on the processing

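The count of 1 rise and 4 falls among the Slc genes was the same with quantile normalization, with pseudocounts of 8 and 16 and with probe sets in place of genes, and came from the same 5 genes in each. Scaling to the hybridization controls gave 1 rise and 41 falls (46.1% of the 89, beside 44.8% of all genes) and moved the Slc median to -0.47 and that of all genes to -0.45. Only 4 of the 89 were then higher, and Slc25a4 turned to -0.43 and passed. Centring on array medians gave 1 rise and 5 falls and a Slc median of -0.073, and without a filter there were 1 rise and 3 falls and a median of 0.036, as dim genes entered. The stricter filter gave 1 rise and 6 falls. No variance trend gave 0 rises and 0 falls with limma, and 11 Slc genes at an unadjusted p under 0.05, and the mean of probe sets gave 0 rises and 4 falls. Leaving out each array gave 0 to 0 rises, 0 to 1 falls and Slc medians of -0.02 to 0.00.

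The replicate block gave 1 rise and 6 falls, beside 169 and 184 of all genes. The added falls were Slc25a25 and Slc6a6. The labels tie the numbers to no shared batch, and the deviations of same-numbered arrays correlated at 0.07 across genes, so the numbers are not taken as pairs. Signal over background limits the dim carriers: 57 of 150 genes were at background in both groups.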

Other observations

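Of the 150 genes, 29 had several probe sets, and 21 of their 34 further probe sets were at background in both groups. The 13 that were not had log2 differences from -0.38 to 0.55, ran the same way as the brightest probe set of their gene in 8 of 13, and 0 of them passed when probe sets were tested. The 2 probe sets of Slc39a4 differed widely in level, at 239.9 and 248.0 with dexamethasone and 226.1 and 213.8 in medium on the brighter, and at 9.6 and 19.2 with dexamethasone and 15.4 and 16.5 in medium on the other.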
